A study of Mus musculus with 3 samples.

Results

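The 49 genes described here encode proteins that act in the G2 and M phases of the cell cycle, and they were followed in bone marrow cells of mice with different Fabp4 genotypes. They are a fixed list of gene symbols, to which no threshold on measured values was applied, among the 33696 genes of the count matrices. All 49 symbols were found, each on a single row. Marrow of each genotype gave 1 droplet library for single-cell RNA sequencing, 3 in all: homozygous Fabp4 knockout, heterozygous Fabp4 knockout and wild type. Fabp4 encodes a fatty acid binding protein best known from adipocytes and macrophages. Each library mixed marrow cells of 2 mice, and no file assigns a cell to a mouse. The labels give neither the deleted part of Fabp4, nor strain, age, sex or any treatment, and they do not say whether other alleles were present. The study asks what Fabp4 does in leukaemia stem cells and in normal blood stem cells, and the labels do not say whether these marrows carried leukaemia. With 1 library per genotype there is no replicate, so no p-value is given, and every difference below is a difference between libraries. Intervals in parentheses are 95% intervals that cover counting error only, since the UMIs (unique molecular identifiers, each standing for a captured RNA molecule) of a cell and the cells of a mouse are not independent.

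In G2, a cell that has copied its DNA builds up cyclin B and the kinase CDK1, and in M phase it condenses its chromosomes, attaches them to a spindle and divides. Most of the genes for this machinery are transcribed late in the cycle and are held low in resting cells. The repressive DREAM complex and the activating MYB-MuvB and FOXM1 complexes act on their promoters through the CHR element (cell cycle genes homology region), often beside CCAAT boxes bound by NF-Y. In marrow, stem and progenitor cells and early neutrophil and monocyte precursors divide, whereas mature neutrophils have left the cycle.

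Promoters of 7 members are shown because they carry, or lack, the elements through which such genes are known to be regulated together. Each line holds the 130 bases that end just before the RefSeq gene start, 5′ to 3′ in the sense of the gene, from build GRCm38.p6. Capitals mark CHR matches, which read TTTGAA (on the opposite strand it reads TTCAAA) or the palindrome with the letters TTCGAA, and they mark CCAAT boxes, which on the opposite strand read ATTGG. Both were searched on either strand, and no matches overlap in the stretches shown.
Hmgb2, chr8:57511713-57511842, plus strand: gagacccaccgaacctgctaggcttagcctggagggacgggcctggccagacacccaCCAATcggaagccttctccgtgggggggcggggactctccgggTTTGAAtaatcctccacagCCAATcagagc
Top2a, chr11:99024190-99024319, minus strand: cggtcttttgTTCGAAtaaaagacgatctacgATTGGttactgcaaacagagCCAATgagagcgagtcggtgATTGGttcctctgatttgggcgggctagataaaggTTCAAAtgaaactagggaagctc
Ube2c, chr2:164769799-164769928, plus strand: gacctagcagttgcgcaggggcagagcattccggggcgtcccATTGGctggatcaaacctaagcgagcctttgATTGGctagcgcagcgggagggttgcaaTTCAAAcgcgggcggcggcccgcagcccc
Cdk1, chr10:69352913-69353042, minus strand: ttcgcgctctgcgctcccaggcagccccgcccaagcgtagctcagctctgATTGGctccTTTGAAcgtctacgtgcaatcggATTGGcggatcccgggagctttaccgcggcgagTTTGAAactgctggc
Cdc20, chr4:118437344-118437473, minus strand: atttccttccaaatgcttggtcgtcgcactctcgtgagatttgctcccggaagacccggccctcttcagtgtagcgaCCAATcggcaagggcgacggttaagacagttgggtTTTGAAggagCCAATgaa
Cks2, chr13:51645102-51645231, plus strand: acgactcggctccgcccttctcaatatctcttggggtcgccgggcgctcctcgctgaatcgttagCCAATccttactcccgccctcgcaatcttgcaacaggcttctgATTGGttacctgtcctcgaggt
Birc5, chr11:117849107-117849236, plus strand: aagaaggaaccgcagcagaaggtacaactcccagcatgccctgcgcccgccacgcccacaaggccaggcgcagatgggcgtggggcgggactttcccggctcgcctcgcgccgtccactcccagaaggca

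The first 5 stretches hold both elements, the Cks2 stretch holds CCAAT boxes without a CHR match, and the Birc5 stretch holds neither. Promoter windows of 300 bases, running from 250 before to 50 after the start, were found for 43 of the 49 members. A CHR match lay anywhere in the window for 34 of the 43 (79.1%), against 21.7% of the 27025 genes in the RefSeq table. Counting only CHR matches within the 50 bases before the start, 12 members (27.9%) had one, against 3.25% of all genes. At least 1 CCAAT box was present for 33 members (76.7%), against 41.1% of all genes, and 2 or more for 28 (65.1%), against 13.3%. Both elements together were found for 28 members (65.1%), against 8.61% of all genes. These are matches of letters in a window, not sites shown to be bound.

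The deposited matrices held 8115 barcodes and 54160590 UMIs for the homozygous library, 10718 and 78426908 for the heterozygous library, and 9432 and 77173735 for the wild-type library. Cells entered the results if they had 500 or more UMIs from 200 or more genes and under 10% of UMIs from mitochondrial genes, which left 4318 homozygous, 7957 heterozygous and 5604 wild-type cells. The mitochondrial limit removed 46.8%, 25.8% and 40.6% of the barcodes in the same order. Median depth was 9036.5, 7658 and 10058 UMIs per kept cell. The targeted gene, Fabp4, gave 5 UMIs in the homozygous library, 38 in the heterozygous library and 50 in the wild-type library, which is 0.108, 0.521 and 0.745 per 1000000 UMIs. Between 44 and 49 barcodes per library also occurred in another library.

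Among the kept cells, the 49 members together supplied 7141 counts per 1000000 UMIs (CPM) in the homozygous library (7116 to 7165), 5020 in the heterozygous library (5003 to 5036) and 4889 in the wild-type library (4872 to 4906). The homozygous level was 1.46 times the wild-type level, a log2 ratio of 0.55. The heterozygous level was 1.03 times the wild-type level, a log2 ratio of 0.04. Thus the summed level of the G2 and M phase genes stood apart in the homozygous library, while the other two libraries were close.

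To see whether this lay in more cells with a high level, each cell with at least 2000 UMIs was thinned to 2000 UMIs drawn at random, and the member UMIs among them were counted. In all 3 libraries the commonest numbers were 3 to 6 member UMIs, and a long second group of cells held from about 16 to over 40. A cell was called G2/M-high with at least 10 member UMIs of 2000. By this measure 1393 of 3647 homozygous cells were G2/M-high (38.2%, 36.6 to 39.8), against 1683 of 7411 heterozygous cells (22.7%, 21.8 to 23.7) and 1247 of 5376 wild-type cells (23.2%, 22.1 to 24.3). The homozygous share exceeded the wild-type share by 15 percentage points (13.1 to 16.9). The heterozygous share differed from the wild-type share by -0.486 points (-1.97 to 0.986), an interval that includes 0.

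The limit cuts a continuous range: 522 homozygous, 1120 heterozygous and 812 wild-type cells held between 8 and 12 member UMIs. With the stricter limit of 16 UMIs, beyond the shoulder of the main group, the shares were 28.2%, 13.99% and 14.1% in the same order. Without thinning, cells with members at 0.5% of UMIs or more made up 34.8%, 19.0% and 20.8%. Kept cells under 2000 UMIs, which could not be thinned, numbered 671 in the homozygous library (15.5%), 546 in the heterozygous library (6.86%) and 228 in the wild-type library (4.07%).

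**Figure D1:**
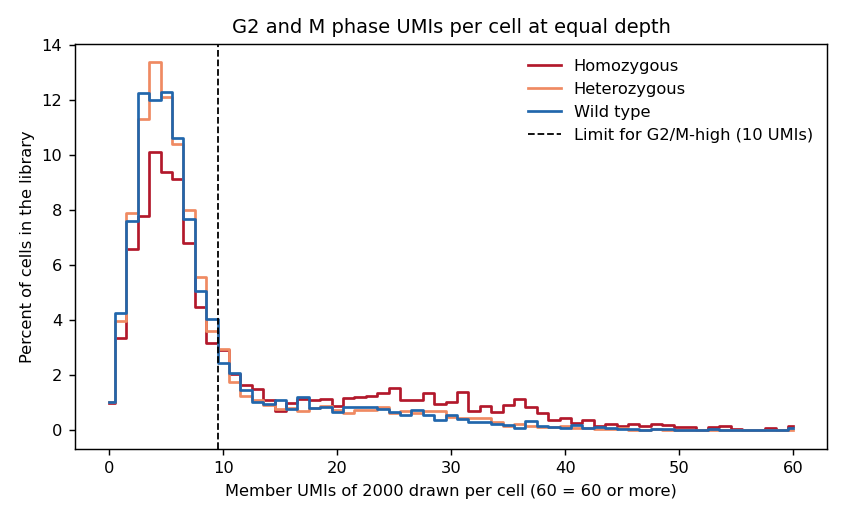
Percent of cells in each library (vertical axis) by number of member UMIs among 2000 drawn per cell (horizontal axis), with the limit for G2/M-high cells at 10 as a dashed line. The homozygous line lies above the heterozygous and wild-type lines over most of the range past 16 UMIs, where 28.2%, 13.99% and 14.1% of cells fall.

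The list was checked by asking whether each gene was higher in the cells picked out by the others. For every gene, cells were split by the remaining 48 members, so that the gene itself took no part in the split. All 49 members were higher in the G2/M-high cells of each library, with a median log2 ratio of G2/M-high over other cells of 3.47 in the homozygous library, 3.44 in the heterozygous library and 3.20 in the wild-type library. Hmmr, a hyaluronan receptor that also organizes spindle poles, separated the cells most, with log2 ratios of 5.14, 4.80 and 4.80. In the homozygous library its UMIs were seen in 58.6% of G2/M-high cells and 3.30% of the others. Kif2c, a kinesin that removes tubulin from microtubule ends at centromeres, had log2 ratios of 4.78, 4.24 and 4.61.

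At the other end stood genes with a raised but less restricted level. Lbr, the lamin B receptor that ties chromatin to the inner nuclear membrane, had log2 ratios of only 0.47, 0.38 and 0.40, and its UMIs were found in 72.9% of the other cells of the homozygous library. Smc4, a core condensin subunit, had ratios of 1.10, 1.0 and 0.73. Cks2, a small partner of cyclin-dependent kinases, had ratios of 1.12, 0.99 and 0.93. Tmpo, which encodes lamina-associated polypeptides, had ratios of 1.07, 1.20 and 1.21. Hmgb2, a DNA-bending chromatin protein, had ratios of 1.73, 1.66 and 1.61 and was detected in 98.0% of the other homozygous cells. The members therefore fall into genes nearly restricted to the G2/M-high cells and a few abundant genes that most marrow cells carry.

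A list of 56 other G2 and M genes, none of them members, had median log2 ratios of 3.48, 3.42 and 3.15 in the same split, close to the members' own. A list of 43 S phase genes, needed for copying DNA, had medians of 0.98, 1.51 and 1.10. The split thus followed late cell cycle genes more than early ones, which describes the split, since it was made with G2 and M genes. G2/M-high cells were also deeper than the others before thinning, with a median of 13247 against 9544 UMIs in the homozygous library, 12497 against 7492 in the heterozygous library and 15045 against 9563 in the wild-type library.

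**Figure D2:**
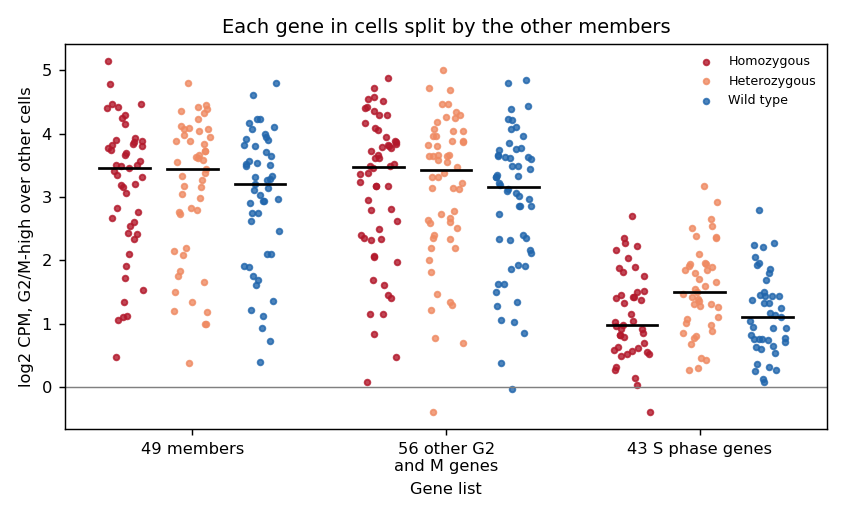
Log2 ratio of each gene's CPM in G2/M-high cells over other cells (vertical axis) for the 49 members, 56 other G2 and M genes and 43 S phase genes, where a point is a gene, a black line is the median and members were left out of their own split. Homozygous, heterozygous and wild-type points are drawn from left to right. Members and the other G2 and M genes centre between 3.15 and 3.48, and S phase genes between 0.98 and 1.51.

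Gene by gene over all kept cells, 35 of the 49 members were more than 1.5-fold higher in the homozygous than in the wild-type library, where 11.5% of all 17034 genes with at least 20 UMIs were. No member was more than 1.5-fold lower, where 9.62% of all genes were. The median log2 ratio of the members was 0.75, against 0.06 over all genes, and 48 of the 49 ratios were above 0. In the heterozygous library no member was past 1.5-fold in either direction, where 11.6% of all genes were higher and 17.6% lower. There the median of the members was -0.05, against -0.14 over all genes. Both comparisons use the same wild-type library.

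Among the genes of chromosome structure, 4 of 7 were past 1.5-fold in the homozygous library. Mki67, which encodes the Ki-67 protein that coats mitotic chromosomes and is the usual marker of cycling cells, had 281 CPM in the homozygous library, 139 in the heterozygous library and 140 in the wild-type library. Its homozygous over wild-type log2 ratio was 1.0 (0.96 to 1.04) and its heterozygous ratio -0.02 (-0.06 to 0.02). Top2a, the topoisomerase that untangles sister DNA molecules, had 296, 153 and 158 CPM in the same order, a homozygous log2 ratio of 0.91. Cdca2, which brings a phosphatase to chromosomes at mitotic exit, had 44.9, 27.2 and 22.3 CPM. Its heterozygous log2 ratio of 0.29 was the highest of the 49, and its homozygous one was 1.01.

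Hmgb2 supplied 91491 of the 329144 member UMIs in the homozygous library, 118032 of 365827 in the heterozygous library and 93540 of 328269 in the wild-type library, so it weighed heavily in the sums. Its level was 1985 CPM in the homozygous library, 1620 in the heterozygous library and 1393 in the wild-type library. These are log2 ratios of 0.51 and 0.22, so the homozygous level was the highest and the heterozygous level lay between the other two. Without Hmgb2, the log2 ratio of the summed level was 0.56 for the homozygous library and -0.04 for the heterozygous library, which no longer stood above wild type.

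Smc4 and Anp32e had the smallest homozygous ratios of this role. Smc4 had 408 CPM in the homozygous library, 328 in the heterozygous library and 362 in the wild-type library, a homozygous log2 ratio of 0.17. Anp32e, a chaperone that removes the histone variant H2A.Z, had 161, 98.8 and 118 CPM, a homozygous log2 ratio of 0.45. Both had their lowest level in the heterozygous library.

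Of the 10 kinases and their partners, 6 were past 1.5-fold higher in the homozygous library. Cdk1, the kinase that drives entry into mitosis, had 106 CPM in the homozygous library, 65.1 in the heterozygous library and 67.3 in the wild-type library, a homozygous log2 ratio of 0.66. The largest ratio in this role was that of Bub1, a checkpoint kinase at kinetochores, at 0.97. Ccnb2, a B-type cyclin that activates CDK1, had 80.7, 41.8 and 54.2 CPM, with a homozygous log2 ratio of 0.58 and a heterozygous one of -0.37 (-0.44 to -0.31). Cks2 had 469 CPM in the homozygous library, 486 in the heterozygous library and 429 in the wild-type library. Its log2 ratios of 0.13 and 0.18 set it apart from the kinases it binds, and its highest level was heterozygous.

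Of the 4 genes of ubiquitin ligases and their partners, 1 was past 1.5-fold higher in the homozygous library, and the others sat just under that limit. Ube2c, the ubiquitin-conjugating enzyme of the anaphase-promoting complex, had 197 CPM in the homozygous library, 127 in the heterozygous library and 133 in the wild-type library, a homozygous log2 ratio of 0.57. Cdc20, the activator of that complex, had 35.3, 20.9 and 24.6 CPM, a homozygous log2 ratio of 0.52. G2e3, a ligase of G2 phase, had 29.5, 23.0 and 20.4 CPM.

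Centromere and kinetochore genes had the highest median log2 ratio of the 7 roles, 0.89, and 7 of 8 were past 1.5-fold in the homozygous library. Cenpf, a large kinetochore protein, had 121 CPM in the homozygous library, 54.3 in the heterozygous library and 57.4 in the wild-type library, a log2 ratio of 1.07 (1.01 to 1.13). Birc5, the survivin subunit of the chromosomal passenger complex, had 145, 71.2 and 78.3 CPM, a log2 ratio of 0.89. Whether promoter elements bear on these ratios was not tested. Cenpa, the centromeric histone, had 138, 69.5 and 88.1 CPM, with a homozygous ratio of 0.65 and a heterozygous one of -0.34. The exception under the limit was Hjurp, the chaperone that loads that histone, at 0.46.

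Spindle and microtubule genes were past 1.5-fold for 12 of 13 members. Gtse1, a microtubule-tip protein named for its expression in G2 and S phase, had the largest ratio of all members, 1.08 (0.83 to 1.34), from low levels of 6.79, 2.99 and 3.20 CPM. Nusap1, which bundles microtubules near chromosomes, had 130 CPM in the homozygous library, 68.6 in the heterozygous library and 62.2 in the wild-type library, a log2 ratio of 1.06. The exception was Tubb4b, a beta-tubulin, with 342, 312 and 346 CPM and a homozygous log2 ratio of -0.02 (-0.04 to 0.01). It was the single member of the 49 whose ratio lay below 0.

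All 4 cytokinesis genes were past 1.5-fold in the homozygous library. Kif23, the motor of the centralspindlin complex, had 101 CPM in the homozygous library, 56.8 in the heterozygous library and 48.2 in the wild-type library, log2 ratios of 1.07 and 0.24. Kif20b, a kinesin of the spindle midzone and midbody, had 46.4, 20.5 and 27.5 CPM. It had the lowest heterozygous ratio of the 49, -0.43 (-0.53 to -0.33).

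Among the 3 nuclear envelope genes, Tmpo was past 1.5-fold, with 243 CPM in the homozygous library, 119 in the heterozygous library and 135 in the wild-type library. Lbr had 191, 171 and 155 CPM, a homozygous log2 ratio of 0.30. Rangap1, which stimulates the GTPase of nuclear transport, had 60.1, 36.4 and 48.7 CPM, a homozygous ratio of 0.30 and a heterozygous one of -0.42.

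**Figure D3:**
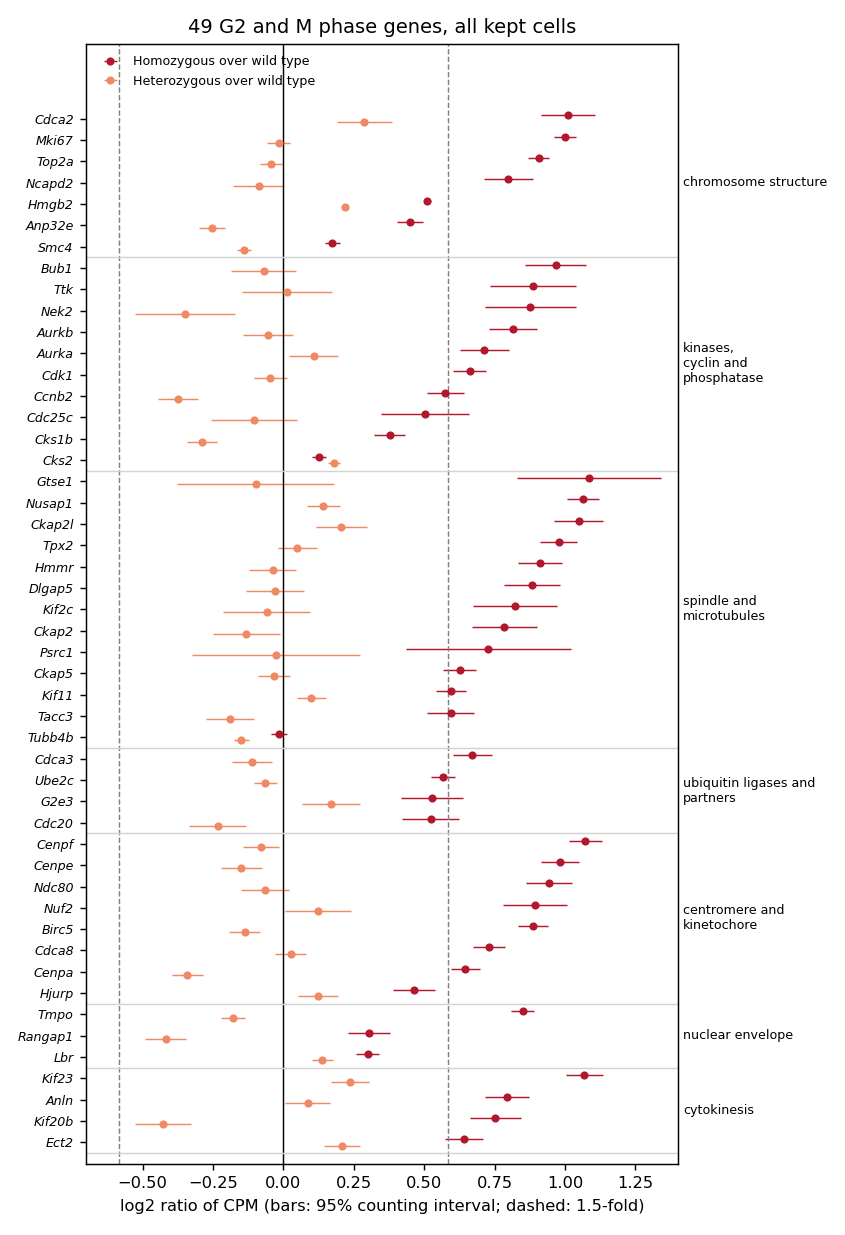
Log2 ratio of each member's CPM over wild type in all kept cells (horizontal axis), for the homozygous and heterozygous libraries, with members ordered by role and 95% counting intervals as bars. Of the 49 homozygous points, 35 lie past the dashed line of 1.5-fold, whereas all heterozygous points lie between -0.43 and 0.29.

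Tubb4b, Hmgb2, Cks1b and Cks2 have close relatives or pseudogenes in the mouse genome. How reads shared between copies were counted is not given in the sources used here, so their levels are less certain than the others.

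The libraries differed in which cells they held, so the members were followed in classes set by marker genes outside the list. In order, the Cd34 class had at least 1 Cd34 UMI, a stem and progenitor marker. The Elane class had Elane, the neutrophil elastase of granulocyte precursors, at 10 or more per 10000 UMIs. The Ltf class had Ltf, lactoferrin of later neutrophil precursors, at the same level. The monocyte class had a UMI each of Ly6c2 and Ccr2. The mature neutrophil class had at least 2 of Cxcr2, Retnlg, Mmp8 and Mmp9, summing to 10 or more per 10000. The Cd34 class held 4.91% of homozygous, 5.71% of heterozygous and 16.2% of wild-type cells, the Elane class 27.6%, 14.9% and 24.9%, and the Ltf class 3.80%, 20.1% and 5.18%. The monocyte class held 26.9%, 12.7% and 18.0%, and the mature neutrophil class 3.61%, 16.2% and 2.55%.

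A gate is not a cell type, and the classes were not alike in their other markers. In the Cd34 class, 10 stem and progenitor markers summed to 1370 CPM in the homozygous library, 1794 in the heterozygous library and 2501 in the wild-type library. There 8 granulocyte-monocyte progenitor markers summed to 7088, 6061 and 5502 CPM, 8 monocyte markers to 4540, 3399 and 2532 CPM and 8 immature neutrophil markers to 1320, 6569 and 2317 CPM. In the Elane class, 8 immature neutrophil markers summed to 9986 CPM in the homozygous library, 22250 in the heterozygous library and 8749 in the wild-type library. In the monocyte class, 8 monocyte markers summed to 5864, 4168 and 4037 CPM and 8 dendritic cell markers to 478, 2275 and 497 CPM. In that class 16 interferon response genes summed to 1255, 474 and 455 CPM. Their sum was also highest in the homozygous library in the other classes. The sums were 466, 207 and 239 CPM in the Cd34 class and 303, 117 and 144 CPM in the Elane class. For the Ltf class they were 466, 149 and 147 CPM, and for mature neutrophils 818, 231 and 255 CPM. Markers with no UMI over all kept cells included Fcer1a in all 3 libraries and Gzma in the heterozygous library. What part these differences have in the results below was not tested.

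G2/M-high cells were most frequent in the Elane class, at 51.6% of homozygous cells (48.5 to 54.7), 47.3% of heterozygous cells (44.3 to 50.3) and 36.1% of wild-type cells (33.5 to 38.7). In the Cd34 class they made up 37.4% (30.9 to 44.4), 25.8% (21.8 to 30.0) and 25.4% (22.6 to 28.4). In the monocyte class they made up 27.1% (24.5 to 29.8), 12.6% (10.7 to 14.9) and 13.2% (11.2 to 15.5). The homozygous share was above wild type by 15.6 points in the Elane class (11.5 to 19.5), 12 points in the Cd34 class (5.10 to 19.2) and 13.9 points in the monocyte class (10.6 to 17.2). The Ltf class had 16.4%, 10.9% and 11.5%, and its homozygous difference of 4.93 points (-1.78 to 12.6) was within counting error.

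Mature neutrophils serve as a class that should lack dividing cells. There 15.5% of homozygous, 10.7% of heterozygous and 6.38% of wild-type cells reached 10 member UMIs of 2000, at median depths of 6032, 5440 and 5743 UMIs, and only 1, 10 and 1 cells reached 16 (0.676%, 0.803% and 0.709%). Their member level of 3145, 2912 and 2806 CPM came largely from Hmgb2, with 1230, 1123 and 976 CPM, and Cks2, with 509, 453 and 401 CPM. Mki67 was at 51.2, 43 and 46.4 CPM. At 10 UMIs the homozygous share of the mature class was 9.16 points above wild type (1.90 to 16.5), and at 16 UMIs it was not above it. At the lower limit, shares near those of the mature class, such as that of the Ltf class, therefore do not stand clear of background. This background was itself higher in the homozygous library. At the stricter limit the Ltf class had 7.86%, 4.42% and 4.53%, from 11, 67 and 13 cells, which is above the mature class in each library. There the Elane class had 38.7%, 33.7% and 21.5% and the monocyte class 20.9%, 8.47% and 9.14%.

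**Figure D4:**
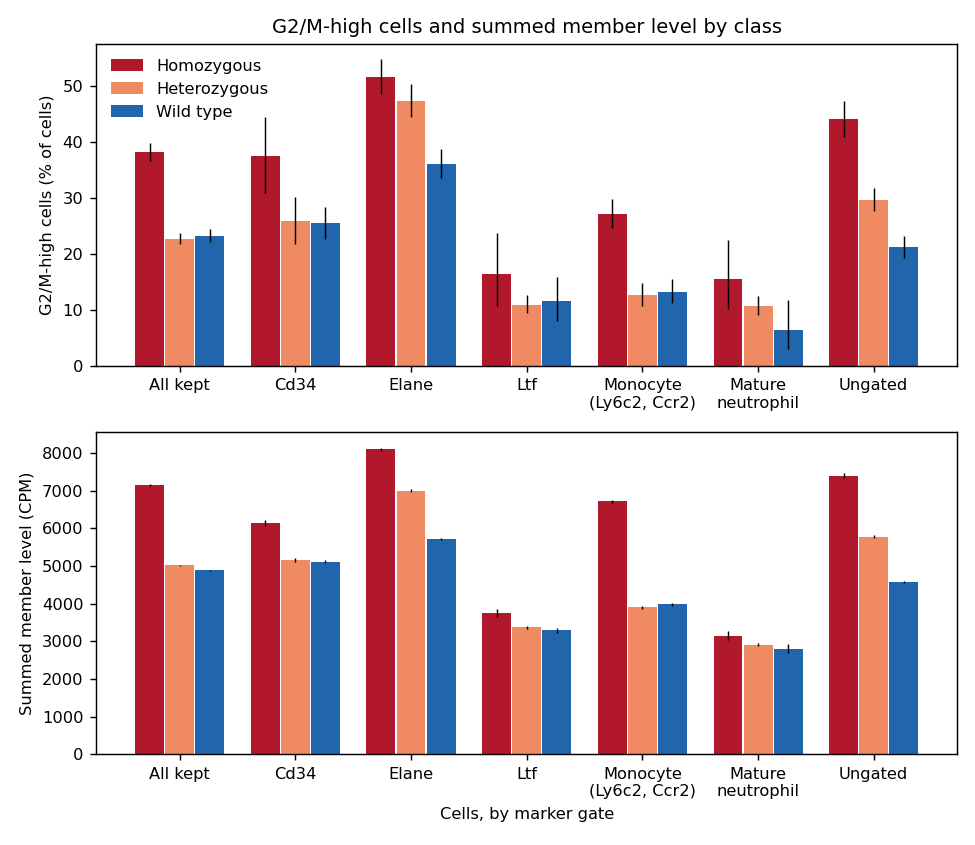
Share of G2/M-high cells (upper panel, percent of cells with at least 2000 UMIs) and summed level of the 49 members (lower panel, CPM) for all kept cells and each marker gate, with homozygous, heterozygous and wild-type bars from left to right and 95% counting intervals. The homozygous bar is the highest in every class, and the heterozygous bar stands above wild type in the Elane class, 47.3% against 36.1%, a difference of -3.14 points among Elane cells with Xist alone.

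In the monocyte class nearly the whole list was higher in the homozygous library: 44 of 49 members were past 1.5-fold, where 12.7% of all genes were, and none was lower past that limit, where 9.45% were. The summed level was 6715 CPM in the homozygous library, 3909 in the heterozygous library and 3978 in the wild-type library, a homozygous log2 ratio of 0.76 (0.74 to 0.77). The median member ratio was 1.01, against 0.08 over all genes.

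Gtse1 had 95 UMIs among homozygous monocyte-gated cells (6.38 CPM), 16 among heterozygous cells (1.60 CPM) and 19 among wild-type cells (1.59 CPM), a log2 ratio of 2.0 (1.28 to 2.80). Nusap1 had 133, 50.6 and 46.8 CPM, a log2 ratio of 1.5 (1.37 to 1.64). Ndc80, which couples kinetochores to microtubules, had 63.6, 22.4 and 24.0 CPM, a log2 ratio of 1.41 (1.22 to 1.60). Top2a had 288, 122 and 115 CPM and Mki67 247, 112 and 112 CPM, so the heterozygous and wild-type libraries were nearly level. The least different members were Tubb4b at 0.18, Lbr at 0.20 and Cks2 at 0.28, all genes that cells outside the G2/M-high group also carry.

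The S phase genes also stood higher in homozygous monocyte-gated cells, with 30 of 43 past 1.5-fold, where 12.7% of all genes were. Their summed level was 2316 CPM in the homozygous library, 1500 in the heterozygous library and 1539 in the wild-type library.

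In the Elane class, 27 members were past 1.5-fold higher in the homozygous library, where 8.47% of all genes were, and none was lower past that limit, where 9.75% were. Their sum was 8096 CPM in the homozygous library, 7003 in the heterozygous library and 5718 in the wild-type library. Here the heterozygous library lay between the others, with log2 ratios of the sum of 0.50 (0.49 to 0.51) and 0.29 (0.28 to 0.30). The heterozygous difference did not hold in every part of the pools. In Elane cells with Xist and no Y-linked UMI, 51 of 153 heterozygous cells and 465 of 1275 wild-type cells were G2/M-high, a difference of -3.14 points (-10.6 to 5.08), and the log2 ratio of the sum was 0.037 (0.0094 to 0.065). When a G2/M-high cell needed Mki67 and Top2a, the heterozygous share difference in the Elane class was 1.19 points (-1.15 to 3.59).

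Cenpe, a kinesin that moves chromosomes to the spindle equator, had 106 CPM in homozygous, 66.8 in heterozygous and 51.3 in wild-type Elane cells, a homozygous log2 ratio of 1.04 (0.93 to 1.15). Cenpf had 148, 94.7 and 73.3 CPM, a ratio of 1.01. Ckap2l, a spindle protein, had 60.02, 44.8 and 29.9 CPM, a ratio of 1.01. Their heterozygous levels all fell between the other two. Hmgb2 had 2347, 2160 and 1643 CPM and Cdk1 132, 118 and 91.9 CPM, in the same order of libraries. At the low end, Tubb4b had 394, 401 and 408 CPM, Rangap1 59.4, 47.2 and 55.9 CPM and Hjurp 64.7, 61.9 and 56.5 CPM.

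Heterozygous Elane cells had 45 of 49 members above the wild-type level, but only 2 past 1.5-fold, where 7.38% of all genes were, and none lower past it, where 13.1% were. They were Ube2c, with 256 CPM in the homozygous library, 265 in the heterozygous library and 176 in the wild-type library, and Tpx2, the activator of Aurora A on spindles, with 116, 90.4 and 60.1 CPM. Their heterozygous log2 ratios were 0.60 (0.53 to 0.66) and 0.59 (0.48 to 0.70). At the low end stood Rangap1 at -0.24, Anp32e at -0.06 and Tmpo at -0.03. Of the 43 S phase genes, 10 were above wild type in these cells, and their median log2 ratio was -0.15. Neither the share of all genes above wild type in these cells nor their median ratio is given here. The counts of 45 and 10 are therefore not set against all genes. The Elane class also had the highest sum of immature neutrophil markers in the heterozygous library, as given above, and its part in this difference was not tested.

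Fewer members passed 1.5-fold in the Cd34 class. Markers outside the list also differed there. Elane had 2624 CPM in the homozygous library, 2149 in the heterozygous library and 1963 in the wild-type library, Mpo, the myeloperoxidase of granules, 840, 598 and 496 CPM, and Ly6c2 2595, 1796 and 1316 CPM. Cpa3, a mast cell protease, had 39.2, 7.37 and 0.066 CPM. Their part in the values below was not tested. In the homozygous library 11 of 49 were past 1.5-fold higher, where 9.39% of all genes were, and 1 was lower, where 11.2% were. The sum was 6150 CPM in the homozygous library, 5165 in the heterozygous library and 5110 in the wild-type library, a log2 ratio of 0.27 (0.25 to 0.29). Aurkb, the kinase of the chromosomal passenger complex, had 54.7, 36.1 and 31.2 CPM, a ratio of 0.81 (0.57 to 1.05). Ckap2l had 46.0, 33.3 and 26.7 CPM, a ratio of 0.78, and Ncapd2, a condensin subunit, had 49.9, 31.0 and 29.8 CPM, a ratio of 0.75. Cdk1 had 103, 67.1 and 67.3 CPM and Top2a 273, 185 and 166 CPM.

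At the low end in homozygous Cd34 cells stood Psrc1, Cdc20 and Ube2c. Cdc20 had 26.8 CPM in the homozygous library, 27.0 in the heterozygous library and 32.1 in the wild-type library, a ratio of -0.26 (-0.58 to 0.05). Ube2c had 144, 128 and 159 CPM, a ratio of -0.15 (-0.28 to -0.01), and Ccnb2 had 62.3, 46.4 and 62.3 CPM. All 4 genes of ubiquitin ligases and their partners together stood at 254 CPM in the homozygous library and 263 in the wild-type library. The 10 members that peak in mitosis summed to 424, 346 and 392 CPM, so their sum was not lower. The member past 1.5-fold lower was Psrc1, a spindle protein, at 9 homozygous, 24 heterozygous and 61 wild-type UMIs, with a ratio of -0.76 and an interval of -1.96 to 0.26 that includes 0.

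For heterozygous Cd34 cells no member was past 1.5-fold higher, where 8.37% of all genes were, and 2 were lower, where 8.05% were. These were Cdc25c, the phosphatase that switches CDK1 on, with 9.73 CPM in the homozygous library, 6.14 in the heterozygous library and 10.7 in the wild-type library, and Gtse1, with 3.68, 2.30 and 3.55 CPM. Their heterozygous ratios were -0.80 (-1.33 to -0.29) and -0.63 (-1.56 to 0.22). Ccnb2 followed at -0.43. The highest were Ckap2l at 0.32, Aurka, the kinase of spindle poles, at 0.29 and Kif23 at 0.29. Of the 49 heterozygous ratios in this class, 24 were above 0 and 25 below it.

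The Ltf class was small in 2 of the libraries, with 164 homozygous cells (1215761 UMIs), 1596 heterozygous cells (13303992 UMIs) and 290 wild-type cells (2378328 UMIs). Its median depth was alike, at 7851.5, 7841 and 7536 UMIs per cell. Of 42 members with at least 20 UMIs, 12 were past 1.5-fold higher in the homozygous library, where 8.16% of all genes were, and 1 (Cdca2) was lower, where 13.4% were. Cenpf had 56 homozygous, 236 heterozygous and 28 wild-type UMIs, or 46.1, 17.7 and 11.8 CPM, a ratio of 1.97 (1.29 to 2.68). Cenpe had 28.8, 14.3 and 10.9 CPM, a ratio of 1.4 (0.62 to 2.19). Among members with at least 50 UMIs the lowest were Anp32e at -0.41 and Cdk1 and Rangap1 at -0.25 and -0.15, the last pair with intervals that include 0. Nek2, a centrosome kinase, had 0 UMIs in the homozygous Ltf class, which allows up to 3 UMIs of the 1215761, against 26 in the heterozygous and 8 in the wild-type class. Psrc1 had 0 homozygous, 5 heterozygous and 0 wild-type UMIs.

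Heterozygous Ltf cells had 5 of 48 members past 1.5-fold higher, where 9.81% of all genes were, and 1 lower, where 14.1% were. The largest heterozygous ratio was that of Ttk, a checkpoint kinase, at 1.98 (0.037 to 5.07), from 5 homozygous, 44 heterozygous and 2 wild-type UMIs. The lower one was Nek2, at -0.78 (-1.97 to 0.57). Among members with at least 50 UMIs Ube2c led, with 37.0 CPM in the homozygous library, 42.3 in the heterozygous library and 20.6 in the wild-type library, a heterozygous ratio of 1.04 (0.62 to 1.49). Cdc20 was at 0.69 and Cenpf at 0.59. The lowest with at least 50 UMIs were Cdca2 at -0.52, Ndc80 at -0.45 and Anp32e at -0.42, none of them past 1.5-fold. The S phase genes went the other way in this class, with 23 of 43 past 1.5-fold lower in the heterozygous library.

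Heterozygous monocyte-gated cells had no member past 1.5-fold, where 9.95% of all genes were higher and 7.79% lower, and a ratio of the sum of -0.03 (-0.04 to -0.01), which turned to 0.0036 with each gate alone and 0.024 with the monocyte gate first. Kif23 was highest at 0.42 (0.26 to 0.58), with G2e3 at 0.30 and Psrc1 at 0.25. Ccnb2 was lowest at -0.47 (-0.67 to -0.27), with Cdc25c at -0.42 and Birc5 at -0.35. In the mature neutrophil class 19 members reached 20 UMIs in the homozygous comparison, with 1 higher past 1.5-fold (7.59% of all genes) and 2 lower (19.6%). There 41 reached it in the heterozygous comparison, with 11 higher (13.5%) and 2 lower (17.2%), and the counts behind them were low.

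**Figure D5:**
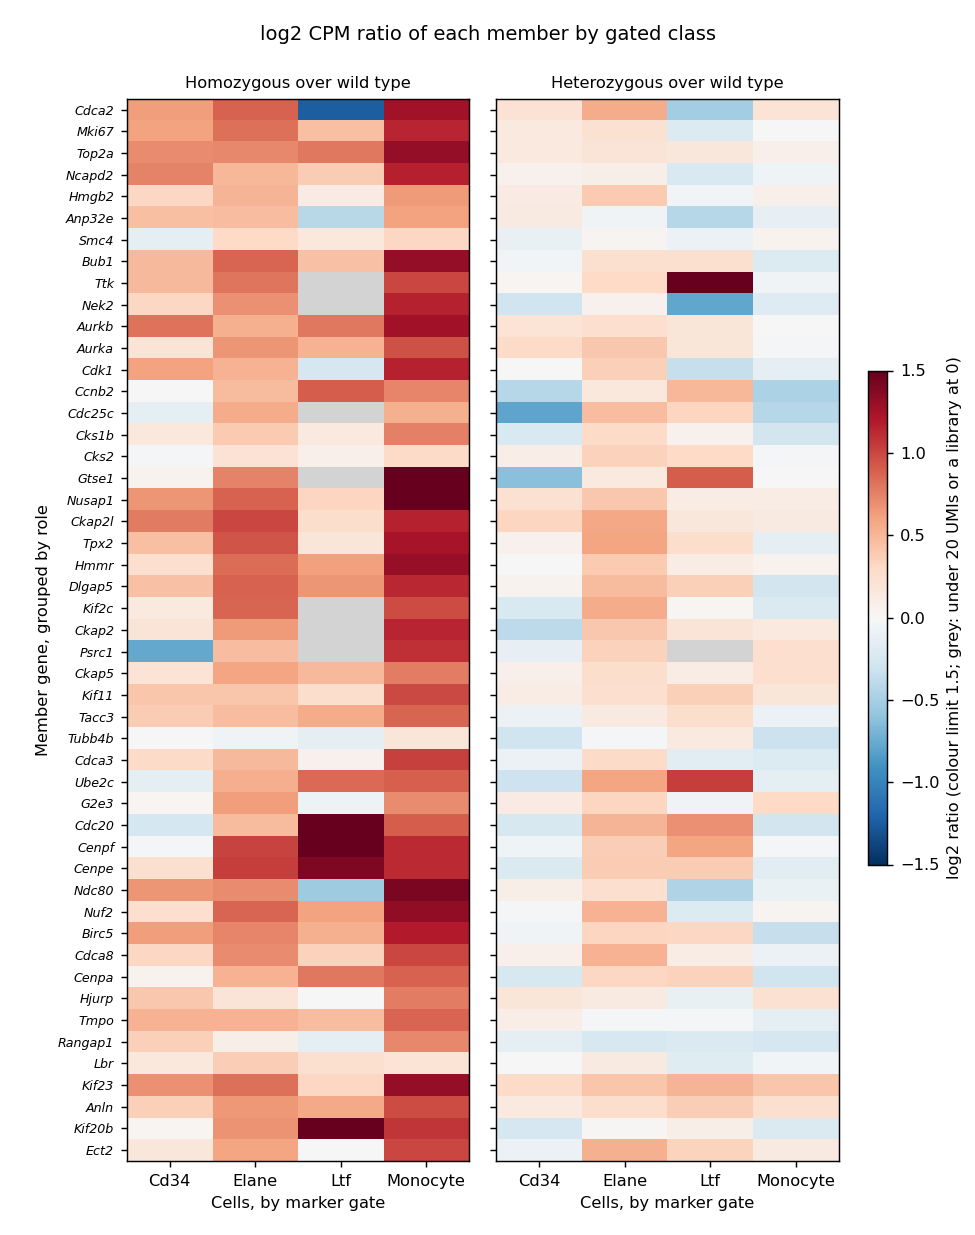
Log2 ratio of each member's CPM over wild type in the Cd34, Elane, Ltf and monocyte classes (columns), for the homozygous library (left) and the heterozygous library (right), with members as rows in the order of their roles. The homozygous monocyte column is the reddest, with a median of 1.01, and the heterozygous Elane column has a median of 0.31, while the heterozygous Cd34 and monocyte columns centre near 0.

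Cells outside all gates made up 33.2% of the homozygous, 30.4% of the heterozygous and 33.1% of the wild-type library. Among them 44.0%, 29.6% and 21.2% were G2/M-high, and the members summed to 7399, 5780 and 4576 CPM. For these cells 41 of 49 members were past 1.5-fold higher in the homozygous library (16.1% of all genes) and 11 in the heterozygous library (10.5% of all genes). None was lower past that limit in either library, where 7.51% of all genes were for the homozygous and 10.1% for the heterozygous library. Their median depth of 4295, 6362 and 7220 UMIs was lowest in the homozygous library, and their mitochondrial share of 4.84%, 2.67% and 3.35% was highest there.

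Weighting each library's class shares by the wild-type make-up gave 39.4% G2/M-high cells for the homozygous library, 28.7% for the heterozygous library and 23.2% for the wild-type library. The homozygous difference from wild type was then 16.2 points, close to its unweighted 15. The heterozygous difference became 5.51 points in place of -0.486. The heterozygous library held many Ltf and mature neutrophil cells, the classes with the lowest shares of G2/M-high cells. Within classes, the heterozygous difference was 11.3 points in the Elane class and 8.48 points in ungated cells. In every other class its interval included 0. The weighted values have no interval, and the reason for the differences within classes was not tested.

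The G2/M-high cells were picked by their member UMIs, so the member level within each side of the split is a description only. In G2/M-high cells it was 12269 CPM in the homozygous library, 10256 in the heterozygous library and 9842 in the wild-type library. In the other cells, which the limit holds low in every library, it was 2634, 2530 and 2513 CPM. Of the member UMIs in G2/M-high cells, 10 members that peak in mitosis (such as Cdc20, Cenpa, Cenpe, Ccnb2 and Aurka) supplied 8.60%, 7.23% and 8.40%. Elane cells made up 38.0%, 31.0% and 38.7% of the G2/M-high cells, monocyte-gated cells 22.5%, 7.55% and 10.7%, and Cd34 cells 5.67%, 6.95% and 18.5%.

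The list of 56 other G2 and M genes behaved much as the members in all kept cells, with a median homozygous log2 ratio of 0.78. In the homozygous library 39 were past 1.5-fold higher, where 11.5% of all genes were, and 0 lower, where 9.62% were. Foxm1, a transcription factor of G2 genes, had 24.5 CPM in the homozygous library, 11.2 in the heterozygous library and 10.9 in the wild-type library, a ratio of 1.16 (1.02 to 1.30), the highest of that list. Ccna2, the cyclin of S and G2 phase, had 47.9, 19.3 and 22.2 CPM, Prc1, a bundler of the spindle midzone, had 115, 58.2 and 53.3 CPM, and Sgo2a, a protector of cohesin, had 32.4, 16 and 15.1 CPM. Plk1, the mitotic kinase, had 26.6, 11.4 and 14.2 CPM, a ratio of 0.91, and Ccnb1, the main B-type cyclin, had 43.8, 23.0 and 28.2 CPM, a ratio of 0.63.

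Mybl2, a subunit of the activating MuvB complex, had 26.0 CPM in the homozygous library, 15 in the heterozygous library and 21.1 in the wild-type library, a homozygous ratio of 0.30 and a heterozygous one of -0.49. At the low end of that list, Zwint had 35.9, 32.0 and 36.8 CPM, Wee1, a kinase that restrains CDK1, had 31.5, 22.6 and 31.7 CPM, Lin54, the DNA-binding subunit of DREAM, had 54.0, 49.8 and 46.6 CPM, and Pttg1, securin, had 26.2, 16.5 and 21.4 CPM. In the split by the members, Pttg1, Zwint, Lin54 and Wee1 were also the 4 genes of that list with the smallest ratios of G2/M-high over other cells in the wild-type library, at -0.03, 0.38, 0.86 and 1.03.

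The 43 S phase genes differed less than the members over all kept cells, with a median log2 ratio of 0.38 in the homozygous library. There 5 of the 43 were past 1.5-fold higher, a share close to the 11.5% of all genes, and 0 were lower, where 9.62% were. The S phase genes summed to 2933 CPM in the homozygous library, 1990 in the heterozygous library and 2429 in the wild-type library. The ratio of member to S phase UMIs was therefore 2.43 in the homozygous library, 2.52 in the heterozygous library and 2.01 in the wild-type library. By class it was highest in mature neutrophils, at 4.46, 3.76 and 3.47, so a high ratio does not by itself mark dividing cells. The part of class make-up in the library values was not tested. In the heterozygous library 39 of the 43 S phase genes were below wild type and 17 of the 49 members above it. Of all genes in that comparison, 17.6% were lower past 1.5-fold and 11.6% higher. The share of all genes on each side of wild type is not given here.

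The pools also differed in Xist and Y-linked RNA. Cells with Xist and no Y-linked UMI numbered 3636 in the homozygous library, 1148 in the heterozygous library and 5151 in the wild-type library. Cells with Y-linked UMIs and no Xist numbered 142, 4507 and 74. Cells with both numbered 162, 880 and 142, and cells with neither 378, 1422 and 237, so a single UMI does not sort every cell, and no background level of these UMIs was measured. Among the cells with Xist alone, 40.9% of homozygous (39.2 to 42.6), 18.1% of heterozygous (15.9 to 20.5) and 24.0% of wild-type cells (22.8 to 25.2) were G2/M-high. The homozygous difference thus held in these cells, and the heterozygous share lay below wild type. Among cells with Y-linked RNA alone the shares were 10.7% (5.97 to 17.3), 23.8% (22.5 to 25.1) and 10.96% (4.85 to 20.5), where the homozygous and wild-type shares, from 131 and 73 cells, did not differ beyond counting error. In the Elane class 0 of 10 homozygous and 2 of 13 wild-type cells with Y-linked RNA alone were G2/M-high, and in the Cd34 class 6 of 27 and 2 of 6, so these values rest on few cells. Among cells with both kinds of RNA, over all classes, the shares were 41.0% of homozygous (33.3 to 49.01), 30.6% of heterozygous (27.5 to 33.8) and 22.0% of wild-type cells (15.5 to 29.7). Among cells with neither they were 11.5% (7.43 to 16.8), 16.6% (14.4 to 19.0) and 7.65% (4.25 to 12.5). In the heterozygous library, 23.8% of Y-linked and 18.1% of Xist cells were G2/M-high, so a comparison with a pool that is almost wholly of Xist cells cannot be told apart from a difference between mice or sexes.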

How the data were processed

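Each of the 3 samples is a mixture of bone marrow cells of 2 mice of a genotype, prepared with the Chromium Single Cell 3′ v3 kit per the labels' protocols. Groups were taken from the genotype given for each sample. The authors deposited, per the file headers, UMI counts for each gene in each barcode, whole numbers without normalization, made with Cell Ranger 8.0.1. Cell Ranger, STAR and the build mm10 are named in the submitters' processing notes. The gene annotation behind the counts is not given in the sources used here.

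Cells were kept with at least 500 UMIs, 200 genes and a mitochondrial share under 10%. CPM is a gene's UMIs per 1000000 UMIs of the cells summed. A UMI is 1 tagged molecule, so no value was divided by gene length. For shares, cells with at least 2000 UMIs were thinned to 2000 (random seed 1) and called G2/M-high with 10 or more member UMIs. Intervals are 95% exact Poisson for a level, exact conditional for a ratio, Clopper-Pearson for a share and Newcombe for a difference of shares, and they cover counting error only. Since 1 library stands for each genotype, no test was made. Ratios needed 20 UMIs in the 2 libraries together. A count of 0 was set against 3 counts. Doublets stayed in, and their removal was an alternative.

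The members, gene lists and gates were chosen with earlier results of these data known. Genes given with values are the 12 members with the highest summed CPM and, per comparison and class, the 3 highest and 3 lowest ratios among members with at least 50 UMIs, and, of the other G2 and M genes, Plk1, Ccnb1, Ccna2, Foxm1 and Mybl2 and the 4 highest and 4 lowest. Other members named beside them as examples (among them Hmmr, Kif2c, Bub1 and Hjurp outside the Elane class) were chosen after their values were seen. Promoter windows came from RefSeq (GRCm38.p6), and 43 of 49 members matched by symbol. Alternatives were other cell filters, doublet removal, member lists, scaling, weights, limits, thinning depths, gates and parts of the pools. Code was tested on simulated counts. Tools were Python 3.11.15, numpy 2.4.6, scipy 1.17.1, pandas 2.3.3, scanpy 1.11.5 and matplotlib 3.10.9.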

Additional observations from a re-analysis of the deposited data

Results flagged for a closer look

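The summed level of the members lay on opposite sides of wild type in 2 classes of the heterozygous library, with a log2 ratio over wild type of -0.025 in the monocyte class and 0.29 in the Elane class. The monocyte value depends on the gates, at 0.0036 with each gate alone and 0.024 with the monocyte gate first, and it was above 0 in 3 of 14 alternatives. The difference between the classes was not tested.

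Barcodes left out by the cell filter also carried member RNA. Their summed level was 8002 CPM in the homozygous library (7940 to 8064), 5213 CPM in the heterozygous library (5153 to 5274) and 4944 CPM in the wild-type library (4901 to 4988). Both knockout levels were above wild type in these barcodes, which no comparison of kept cells used. They numbered 3797, 2761 and 3828.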

How the results depend on the processing

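The homozygous over wild-type log2 ratio of the summed level (0.55) stayed above 0 in all 12 alternatives. It was 0.57 with no cell filter, 0.57 with a mitochondrial limit of 25%, 0.56 with doublets removed, 0.56 without Hmgb2, 0.73 without the 5 highest members, 0.58 in cells with Xist alone, 0.63 with equal weight per cell and 0.15 in cells with Y-linked RNA alone. The heterozygous ratio (0.04) turned below 0 without Hmgb2 (-0.040), without the 5 highest members (-0.054), in cells with Xist alone (-0.15) and with equal weight per cell (-0.019), and it was 0.050 with doublets removed, 0.11 with scaling that left out the 50 highest genes and mitochondrial genes, and 0.49 in Y-linked cells. The reason for each of these shifts was not tested.

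The homozygous difference in G2/M-high share (15 points) was 19.9 with no cell filter, 19.8 at a mitochondrial limit of 25%, 12.6 with at least 1000 UMIs and a limit of 5%, 11.2 at 6 member UMIs, 12.6 with thinning to 4000 UMIs, 9.68 when a cell needed Mki67 and Top2a, and -0.272 in Y-linked cells (131 homozygous and 73 wild-type cells). The heterozygous difference (-0.486) was -2.22 with no filter, 12.8 in Y-linked cells and -5.88 in Xist cells. At wild-type class shares the homozygous difference (16.2) was 13.3 with the stricter filter, 12.4 at 6 UMIs, 13.5 with thinning to 4000 and 10.03 by Mki67 and Top2a, and the heterozygous difference (5.51) was 2.16 at 6 UMIs, 3.85 with thinning to 1000, 1.18 by Mki67 and Top2a and 3.88 with gates at 20 per 10000.

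Past 1.5-fold, the homozygous count (35) became 7 at 2-fold and 14 in Y-linked cells, and the heterozygous counts (0) became 24 higher in Y-linked cells and 3 lower in Xist cells. The share of all genes past the limit in these settings is not given here, so these counts are not set against it. Classes of 5 in which the whole interval of the ratio lay above wild type numbered 5 by level for the homozygous library (1 in Y-linked cells) and 2 for the heterozygous library (1 without the 5 highest members, 4 with the other scaling). By share they numbered 4 (0 in Y-linked cells, 2 with thinning to 1000) and 1 (0 in Xist cells and 0 by Mki67 and Top2a). The 4 include the mature neutrophil class, which should lack dividing cells and whose difference was not seen at 16 UMIs.

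Within classes, 435 of 600 values stayed within counting error or a factor of 1.5, 150 moved more, and 15 reversed, meaning that the sign changed (or became 0) where the reported interval excludes 0. Of 340 levels and shares among them, another 28 changed sign where that interval includes 0, such as the heterozygous Cd34 share (10 of 20 alternatives), Cd34 level (5 of 14) and Ltf share (6 of 20) and the homozygous Ltf share (1 of 20, -12.5 points in Y-linked cells). Reversed homozygous values in Y-linked cells were shares of -11.1 points (Cd34), -15.4 (Elane) and -12.5 (mature neutrophils) and log2 levels of -0.90 (Elane), -0.48 (Ltf) and -0.14 (mature neutrophils). The mature neutrophil share also became -0.0335 points at 16 UMIs, -0.0335 by Mki67 and Top2a and 0 without the 5 highest members. Reversed heterozygous values were -3.14 points for Elane in Xist cells, log2 levels of -0.0028 with doublets removed and -0.043 in Y-linked cells for Ltf, and 0.82 in Y-linked cells, 0.0036 with each gate alone and 0.024 with the monocyte gate first for monocytes.

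No paired analysis was possible because each genotype has 1 library. Scrublet's automatic threshold marked 0% of barcodes in every library, so the top scores were removed at 0.8% per 1000 barcodes (527 homozygous, 919 heterozygous and 712 wild-type). Leaving out shared barcodes, setting a minimum of 2000 UMIs per cell and counting members within parts of the pools were chosen after seeing the data. Few cells limit the mature neutrophil and Ltf classes and the Y-linked cells, and animals cannot be separated from genotype.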
